A study of Mus musculus with 23 samples.

Results

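The 6 RNA libraries described here come from undifferentiated R1 mouse embryonic stem cells (ESCs) whose sample titles carry set number 1, out of 23 libraries in the series. They were chosen by title, cell line and treatment, with no use of measured values. They comprise 2 libraries of SET knockout line KO1, 2 of SET knockout line KO2 and 2 of wild type (WT) R1 cells. The series compared SET knockout and WT ESCs in 2 title sets, some of set 2 after retinoic acid, and KH2 ESCs with an inducible SETa transgene. For 1 comparison, 10 undifferentiated R1 libraries of set 2 were used, 3 of KO1, 3 of KO2 and 4 of WT. Here the question was how the transcript profile of each knockout line differed from WT. R1 is a male ESC line, and all these cultures grew on mouse embryonic fibroblast feeders in serum medium with LIF. No age, inducing drug or other allele is given for them. The labels give neither the edited part of Set nor whether a knockout line is 1 clone, and none says that replicates were separate cultures, so the p-values reflect differences among these libraries, part of which could be technical.

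SET is an acidic nuclear protein that binds histones as a chaperone, masks lysines of histone tails from acetylation as part of the INHAT complex, and inhibits the phosphatase PP2A. In ESCs, chaperones of this kind are studied for their part in holding chromatin open to either self-renewal or differentiation. The QuantSeq assay reads 1 tag near the 3′ end of a polyadenylated RNA, so counts follow transcript number with little effect of transcript length.

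The libraries held 806412 to 1445013 counts assigned to genes, so a floor of 3 counts equalled 2.08 to 3.72 CPM, the library-scaled count. The 2 libraries of a line differed beyond sampling noise (chi-square per gene 4.02 in KO1, 1.86 in KO2 and 4.22 in WT), so no pair was counted as 1 sample, though separate preparations of 1 RNA could differ as much. Levels are CPM after TMM scaling, and a gene is called when its edgeR quasi-likelihood adjusted p is under 0.05. Summed CPM of 6 ESC markers lay between 1284 and 1745 in KO and was 3343 and 2861 in WT, so all 6 libraries carried ESC transcripts, although Pou5f1 itself had only 16.3 to 20.7 CPM in KO and 22.3 and 16.9 CPM in WT.

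Set (ENSMUSG00000054766, chr2:30057378-30072577, plus strand, GRCm38) had 25.1 and 22.9 CPM in the KO1 libraries and 19.4 and 28.6 CPM in the KO2 libraries, against 1086 and 1114 CPM in the WT libraries. The 4 KO libraries lay far below both WT libraries, and the edgeR log2 fold change of -5.50 (SE 0.18, adjusted p = 5.34e-13) was -5.52 in KO1 and -5.49 in KO2. Because the tag lies near the 3′ end, these values show a lowered transcript and say nothing of the edit itself.

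Y-linked transcripts set the libraries apart before any comparison of genotype. Ddx3y, a Y-linked RNA helicase, had 2.51 and 8.14 CPM in KO1 and 72.0 and 74.0 CPM in KO2, against 0 and 0.941 CPM in WT. Eif2s3y, a Y-linked translation initiation subunit, had 23.9 and 13.3 CPM in KO1 and 36.0 and 55.1 CPM in KO2, against 1.86 and 0.941 CPM in WT. Of the 6 Y-linked genes examined, 3 had no count in set 1, so their summed CPM mostly repeats Ddx3y and Eif2s3y. The sum was 26.4 and 21.5 in KO1 and 114 and 147 in KO2, against 1.86 and 1.88 in WT. Both WT libraries of this male line were thus at or near 0, KO1 was low and KO2 was highest. Since both WT libraries share this state, no comparison with WT could be made without it. Xist, the RNA that coats an inactive X chromosome, had 3.70 to 9.77 CPM in KO and 26.0 and 16 CPM in WT (edgeR log2 fold change -1.78, adjusted p = 0.00419), a call that was lost without WT replicate 1. Every difference between genotypes in set 1 therefore runs alongside a difference in Y-linked transcripts, and the part of that difference in the results was not tested.

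**Figure D1:**
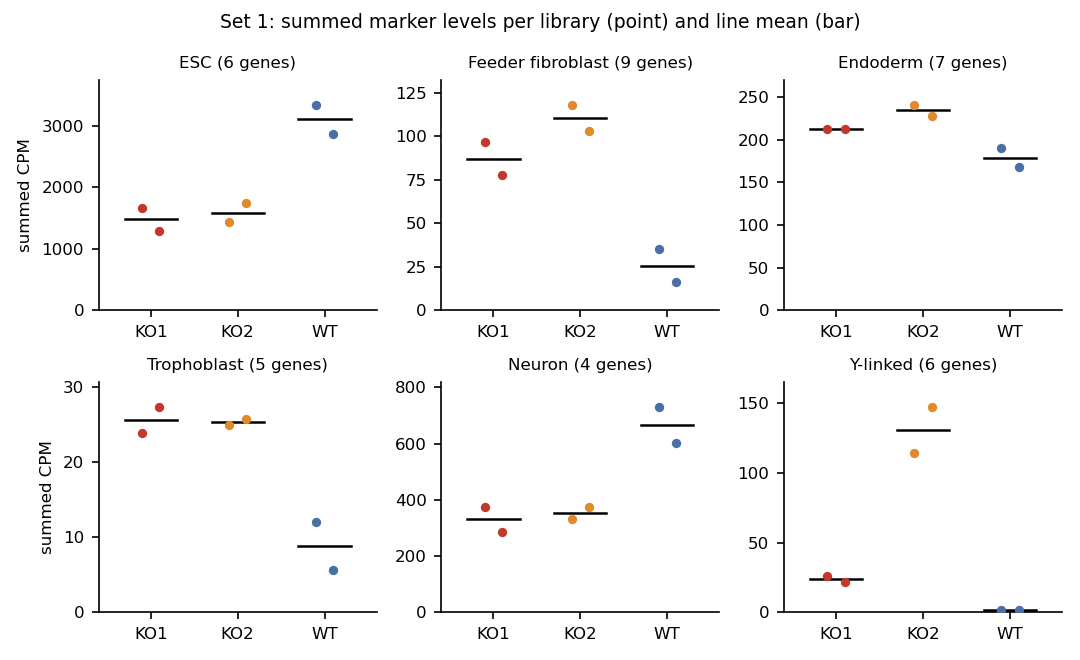
Summed CPM of 5 marker groups and of 6 Y-linked genes (y axis) in each library of KO1, KO2 and WT (x axis), with a point per library and a bar at the mean of the 2. ESC markers were lower in the 4 KO libraries, feeder fibroblast markers were at 77.7 to 118 CPM in KO against 35.3 and 16 in WT, and the Y-linked sum separated all 3 groups.

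Among 9764 genes tested, 1345 (13.8%) were called in KO against WT, as the mean of both lines minus WT. They comprised 753 higher genes (7.71%) and 592 lower genes (6.06%), and 831 differed by more than 2-fold, 539 up and 292 down. All 1345 had the same sign in both lines, but calls made on their mean against the same WT libraries favour this. In 1729 genes (17.7%) all 4 KO libraries lay above both WT libraries, and in 1707 (17.5%) all 4 lay below. The median log2 fold change over all tested genes was -0.03. Each line set against the same 2 WT libraries gave 1123 called genes for KO1 (11.5%), of which 645 were higher (6.61%) and 478 lower (4.9%), and 965 for KO2 (9.88%), of which 610 were higher (6.25%) and 355 lower (3.64%). The calls depend on the test and on single libraries, since the DESeq2 Wald test called 612 genes in KO against WT, 476 in KO1 and 434 in KO2, and leaving out WT replicate 1 gave 751, 573 and 708. Without KO1 replicate 2 the KO1 count was 516, and without KO2 replicate 1 or replicate 2 the KO2 count was 594 or 524.

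**Figure D2:**
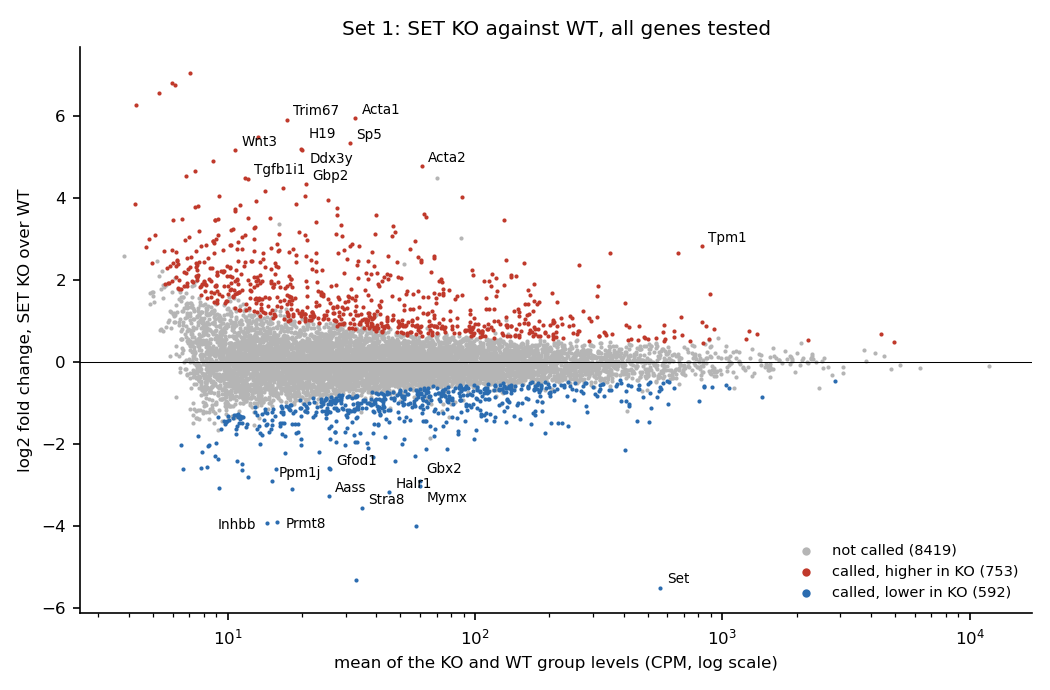
Each point is 1 of the 9764 genes tested, with the mean of the KO and WT levels on a log CPM scale (x axis) and its KO over WT fold change in log2 units from edgeR (y axis). Set is the lowest labelled gene at -5.50, Tpm1 stands out among abundant genes at 2.82, and most of the highest fold changes belong to genes with almost no counts in WT.

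Beside Set itself, the lowest genes in KO came from signalling, germline, metabolic and homeobox classes. Inhbb, which encodes the βB subunit of activins, had 3.77 and 0 CPM in KO1 and 0.923 and 2.79 CPM in KO2, against 28.8 and 25.4 CPM in WT, a log2 fold change of -3.93 (SE 0.52, edgeR adjusted p = 4.86e-05). Prmt8, an arginine methyltransferase of the plasma membrane, had 2.51 and 5.18 CPM in KO1 and 0.923 and 0.698 CPM in KO2, against 30.7 and 28.2 CPM in WT (log2 -3.91, adjusted p = 6.70e-06). For both genes the KO libraries were close to the counting floor and did not overlap with WT.

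Stra8, the retinoic acid-induced gene of meiotic entry, had 7.54 and 8.14 CPM in KO1 and 3.69 and 3.49 CPM in KO2, against 66.0 and 62.1 CPM in WT (log2 -3.56, adjusted p = 2.17e-07). Aass, the first enzyme of lysine breakdown, had 3.69 to 5.92 CPM over the KO libraries and 48.3 and 45.1 CPM in WT (log2 -3.28). Halr1, a long noncoding RNA next to the Hoxa cluster, had 7.39 to 13.8 CPM in KO and 94.8 and 66.8 CPM in WT (log2 -3.17). Each of these 3 genes kept a low but countable level in all 4 KO libraries. Gbx2, a homeobox factor of the naive ESC network, had 20.1 and 9.62 CPM in KO1 and 17.5 and 11.2 CPM in KO2, against 94.8 and 116 CPM in WT (log2 -2.91, SE 0.26, edgeR adjusted p = 7.30e-07). Ppm1j, a protein phosphatase of the PP2C family, fell by 2.91 on the log2 scale and Gfod1 by 2.62 (edgeR adjusted p = 9.21e-05 and 9.62e-06).

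Mymx (chr17:45600971-45602102, minus strand), the micropeptide that drives membrane fusion of myoblasts, had 16.3 and 14.1 CPM in KO1 and 9.23 and 13.3 CPM in KO2, against 114 and 99.7 CPM in WT. Its log2 fold change of -3.02 (SE 0.23, edgeR adjusted p = 1.14e-07) was -2.83 in KO1 and -3.21 in KO2. The other called member of an 8-gene tested list of myoblast fusion and skeletal muscle genes (27 listed) was Jam2, a junctional adhesion molecule, at 34.8 to 62.8 CPM in KO and 121 and 123 CPM in WT (log2 -1.23). The list's median was 0.41, and 6 members were not called.

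The highest genes in KO were nearly silent in WT, so their size is given as a ratio of counts scaled to library size. Trim67, a tripartite motif ubiquitin ligase, had 30.2 and 34.0 CPM in KO1 and 36.9 and 36.3 CPM in KO2, against 0.929 and 0 CPM in WT, a ratio of 74.3 (95% counting interval 13.2 to 2953). It was called in each line (edgeR adjusted p = 2.82e-06 over both lines), and WT held 1 count. Tgfb1i1, the focal adhesion LIM protein Hic-5, had 19.2 to 26.5 CPM in KO and 0 and 1.88 CPM in WT, a ratio of 25 (95% counting interval 6.76 to 209). The intervals cover counting error only, and reads without molecular identifiers are not independent molecules.

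Genes of the actin and contractile cytoskeleton were higher in KO. Of 36 tested members of that list (39 listed), 22 rose and the other 14 were not called, with a median log2 fold change of 1.02 against -0.03 for all tested genes. Over all tested genes 7.71% were called higher and 6.06% lower, the shares against which this and the later list counts stand. The lists were chosen with earlier results of these data known, so these shares describe the members and test nothing. Counts and medians cover tested members, and a member near 0 in WT was tested only through its KO counts. The promoter windows of this list were searched on both strands for the CArG box, the site bound by serum response factor. It was found in 11 of 43 windows (25.6%), against 1.63% of 32851 windows of all genes, each 300 bases long from 250 before to 50 after a start in RefSeq GRCm38.p6. Risen members held it in 6 of 23 windows, and the other members in 5 of 20. Acta2, also among the 10 highest genes, Tpm1 and Csrp1 rose but are not among the members with a match. The 120 bases before the starts of both sarcomeric actins are shown, as called genes with a match, Acta1 being among the 10 highest genes. The CArG box is in capitals and, in Acta1, so is the sequence CATTCC that was searched for in the YAP list.
Acta1, chr8:123894776-123894895, minus strand: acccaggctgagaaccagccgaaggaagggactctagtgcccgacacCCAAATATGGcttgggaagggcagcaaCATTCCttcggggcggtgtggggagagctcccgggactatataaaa
Actc1, chr2:114052876-114052995, minus strand: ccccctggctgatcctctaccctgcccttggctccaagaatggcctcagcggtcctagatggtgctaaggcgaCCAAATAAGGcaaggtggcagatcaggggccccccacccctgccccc
A match describes the letters of the window and shows no binding. A gene with several starts has several windows, so windows are not independent. Here and in the later lists the shares of windows with a match describe the list, and were not tested.

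Tpm1 (chr9:67022590-67049406, minus strand), the tropomyosin that lines actin filaments, had 1346 and 1515 CPM in KO1 and 1499 and 1439 CPM in KO2, against 209 and 201 CPM in WT. The KO libraries lay within a narrow band far above both WT libraries, with a log2 fold change of 2.82 (SE 0.16, edgeR adjusted p = 7.47e-09), 2.80 in KO1 and 2.84 in KO2. Acta2 (chr19:34241090-34255590, minus strand), smooth muscle actin, had 111 and 119 CPM in KO1 and 121 and 121 CPM in KO2, against 5.58 and 2.82 CPM in WT (log2 4.77, SE 0.32, adjusted p = 2.13e-08). Acta1 (chr8:123891769-123894751, minus strand), skeletal muscle actin, had 66.6 and 81.4 CPM in KO1 and 67.4 and 43.3 CPM in KO2, against 1.86 and 0 CPM in WT. With 2 counts in WT its ratio was 68.4 (95% counting interval 18.8 to 567), and it was called (edgeR adjusted p = 8.98e-07). Csrp1, a LIM protein of actin bundles, had 99.2 to 135 CPM in KO and 16.7 and 22.6 CPM in WT (log2 2.57). Actc1, cardiac actin, had 8.79 to 18.5 CPM in KO and 3.72 and 0 CPM in WT (log2 2.82, edgeR adjusted p = 0.00747), and is named for its promoter, after its values were seen. Its call was lost without WT replicate 2 and by the DESeq2 Wald test.

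Feeder fibroblasts also express many of these genes, and their markers moved with these genes. The summed level of 9 feeder markers was 96.7 and 77.7 CPM in KO1 and 118 and 103 CPM in KO2, against 35.3 and 16 CPM in WT. Col1a1, the α1 chain of type I collagen, had 52.8 and 51.1 CPM in KO1 and 70.2 and 51.0 CPM in KO2, against 12.1 and 2.82 CPM in WT (log2 2.88, edgeR adjusted p = 4.74e-05). Col1a2, another of the 9, was also called higher in KO. Of the 9 markers, 2 reached a mean of 10 CPM in KO and 0 did in WT. Among the other defining markers, Lum had no count in any library, Dcn had 0.740 to 2.79 CPM in KO and 0 in WT, Postn 0 to 2.77 CPM in KO and 0 in WT, and Col3a1 1.48 to 4.89 CPM in KO and 0.929 and 0 CPM in WT. Over a longer list of 30 feeder genes, 14 were tested and 11 rose (median log2 2.01; 6 of 15 by the DESeq2 Wald test), and the sum was 1314 to 1456 CPM in KO and 669 and 533 CPM in WT. Acta2, S100a4 and S100a6 stand on that list too, and ESCs express some of it. In bulk RNA, a change in the number of cells of a type and a change in RNA per cell cannot be told apart. The part of feeder transcripts in the results was not tested.

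**Figure D3:**
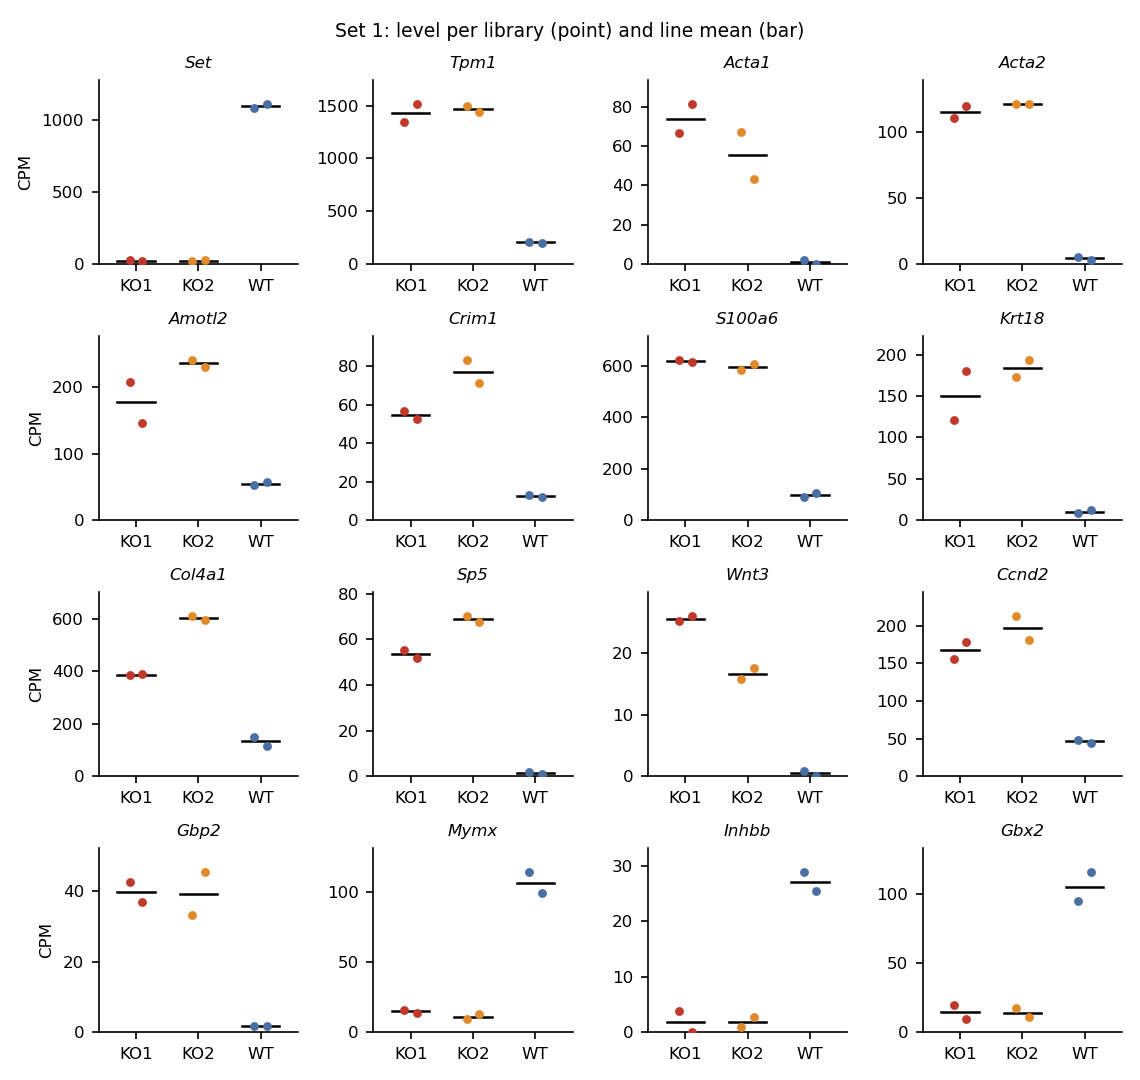
CPM (y axis, from 0) of 16 genes in each library of KO1, KO2 and WT (x axis), with a point per library and a bar at the mean of the 2. In every panel the 4 KO libraries lie on 1 side of both WT libraries, below them for Set, Mymx, Inhbb and Gbx2 and above them for the other 12 genes.

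Genes tied to the Hippo effector YAP and the CCN matricellular proteins were higher in KO as well. Of 21 tested members (24 listed), 14 rose, 1 fell and 6 were not called, with a median log2 fold change of 1.82. By the DESeq2 Wald test 10 of 21 were higher and 1 was lower. The TEAD-type sequence CATTCC, searched on both strands, occurred in 13 of 20 windows of the list (65%), from 16 genes, against 14.7% of all windows. It was in 11 of 15 windows of risen members and 2 of 5 of the others. This sequence is in capitals in the 120 bases before the starts of Crim1 and Amotl2 (in Crim1 as its reverse complement). Both were picked as called genes with a match. Amotl1, also called, is not among the members with a match.
Crim1, chr17:78200128-78200247, plus strand: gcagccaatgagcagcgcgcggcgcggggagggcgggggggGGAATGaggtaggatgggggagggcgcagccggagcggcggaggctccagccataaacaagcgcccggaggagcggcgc
Amotl2, chr9:102717684-102717803, plus strand: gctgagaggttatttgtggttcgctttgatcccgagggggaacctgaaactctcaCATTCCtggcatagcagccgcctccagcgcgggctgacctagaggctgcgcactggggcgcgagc
Amotl2, an angiomotin that binds YAP at junctions, had 209 and 147 CPM in KO1 and 241 and 231 CPM in KO2, against 53 and 57.4 CPM in WT (log2 1.88, SE 0.21, edgeR adjusted p = 6.58e-06). Its relative Amotl1 had 136 to 183 CPM in KO and 29.7 and 38.6 CPM in WT (log2 2.24). Crim1, a transmembrane protein that binds BMPs, had 56.5 and 52.5 CPM in KO1 and 83.1 and 71.2 CPM in KO2, against 13 and 12.2 CPM in WT (log2 2.35, SE 0.27). The member that fell was Dlc1, a GTPase-activating protein for RhoA, at 260.1 and 255 CPM in KO1 and 224 and 236 CPM in KO2, against 666 and 661 CPM in WT (log2 -1.45, edgeR adjusted p = 2.11e-06). Ccn1, named after its values were seen, did not pass edgeR's test (adjusted p = 0.238), but was called without either KO1 library, by the DESeq2 Wald test and with counts summed per KO line. KO1 replicate 2 held 21.5 CPM, and the other 3 KO libraries held 193, 177 and 239 CPM, against 14.9 and 20.7 CPM in WT.

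Calcium-binding S100 proteins, annexins and galectins were higher in KO. Of 16 tested members (24 listed) 10 rose and 6 were not called, with a median log2 fold change of 1.02. By the DESeq2 Wald test 8 of 15 were higher. S100a6, called calcyclin, had 622 and 613 CPM in KO1 and 582 and 605 CPM in KO2, against 88.3 and 104 CPM in WT (log2 2.65, SE 0.18, edgeR adjusted p = 2.13e-08). Anxa3, a phospholipid-binding annexin, had 101 to 126 CPM in KO and 12.1 and 6.58 CPM in WT (log2 3.60). Lgals1, a secreted galectin, had 161 to 219 CPM in KO and 47.4 and 47.0 CPM in WT (log2 2.04). S100a4 had 25.1 to 48.0 CPM in KO and 3.72 and 0.941 CPM in WT (log2 3.84, edgeR adjusted p = 1.55e-05). The feeder marker sums (77.7 to 118 CPM in KO, 35.3 and 16 CPM in WT) moved with this group as well.

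Basement membrane genes rose in 13 of 20 tested cases (27 listed), 7 were not called, and the median was 1.02. Without WT replicate 1 the count was 8 of 20. Col4a1 (chr8:11198423-11312826, minus strand), a chain of type IV collagen, had 387 and 388 CPM in KO1 and 609 and 593 CPM in KO2, against 151 and 115 CPM in WT (log2 1.86, SE 0.18, edgeR adjusted p = 1.56e-06). KO2 lay above KO1 and both lay above WT. Its partner Col4a2 had 141 to 199 CPM in KO and 46.5 and 42.3 CPM in WT (log2 1.96). Sparc, a collagen-binding matrix protein, had 1176 to 1454 CPM in KO and 446 and 412 CPM in WT (log2 1.66), and Lamb1, a laminin chain, 509 to 637 CPM in KO and 237 and 199 CPM in WT (log2 1.44).

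Keratins of simple epithelia were higher in KO. Krt18 (chr15:102028180-102032027, plus strand) had 121 and 181 CPM in KO1 and 174 and 193 CPM in KO2, against 8.36 and 12.2 CPM in WT (log2 4.01, SE 0.29, edgeR adjusted p = 5.29e-08). Its pairing partner Krt8 had 70.4 and 74.0 CPM in KO1 and 76.6 and 74.0 CPM in KO2, against 4.65 and 7.52 CPM in WT (log2 3.58). Krt19 had 40.0 to 65.5 CPM in KO and 9.29 and 5.64 CPM in WT (log2 2.73). Keratin genes have processed pseudogenes that can share reads, and how the authors' counting split them was not tested. Dsp, the desmosomal plaque protein, had 105 to 127 CPM in KO and 34.4 and 22.6 CPM in WT (log2 2.02). Over the list of keratins and junction genes 9 of 21 tested members (25 listed) rose, 1 fell and 11 were not called, with a median of 0.64. The call lost in each fit that left out 1 library was the fall of Ezr, a linker of actin to the membrane, at 319 to 334 CPM in KO and 443 and 453 CPM in WT (log2 -0.46).

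Extraembryonic markers rose in part. In the primitive and visceral endoderm list 9 of 19 tested members (28 listed) rose and 10 were not called (median 1.05). By the DESeq2 Wald test 6 of 19 were higher, and without the low-count filter 10 of 25 were higher with a median of 0.72. Col4a1, Lamb1 and Fst, among the 9 that rose, are also matrix or signalling genes. The endoderm factors Foxa2 and Sox17 rose too, as did Bmp2, Cited1 and Plat. Fst, the activin-binding follistatin, had 47.7 and 22.2 CPM in KO1 and 57.2 and 64.9 CPM in KO2, against 2.79 and 2.82 CPM in WT (log2 3.95, SE 0.47, edgeR adjusted p = 1.38e-05). Pth1r, a parathyroid hormone receptor of parietal endoderm, had 36.4 to 62.1 CPM in KO and 18.6 and 15.0 CPM in WT (log2 1.5). The endoderm factor Gata4 had 12.6 to 37.9 CPM in KO and 20.4 and 8.47 CPM in WT and Gata6 34.0 to 60.0 CPM in KO and 26.0 and 35.7 CPM in WT, and neither passed (edgeR adjusted p = 0.137 and 0.0944), though Gata4 was called without KO1 replicate 1 and without the low-count filter. Gata4 and Gata6 are named after their values were seen. The summed level of 7 endoderm markers was 212 to 241 CPM in KO and 191 and 167 CPM in WT. In the trophectoderm list 7 of 14 tested members (25 listed) rose, Bmp4 fell and 6 were not called (median 1.00). By the DESeq2 Wald test 5 of 14 were higher. Krt8, Krt18 and Krt19 are among the 7 that rose, as is Eomes, a defining trophoblast marker. Eomes also stands on the list of Nodal, Lefty and activin genes. Of the defining trophoblast markers Cdx2 had 0 to 2.96 CPM in KO and 0 in WT, and 5 of them summed to 23.9 to 27.4 CPM in KO and 12.1 and 5.64 CPM in WT.

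Wnt ligands and Wnt targets moved unevenly. Of 9 tested genes for ligands and secreted antagonists (32 listed, most under the filter on low counts) 5 rose, 1 fell and 3 were not called (median 1.82). Ligands near 0 in WT were tested only because of their KO counts, and without the filter 6 of 30 were higher with a median of 1.10. The DESeq2 Wald test called 3 higher. Without WT replicate 1 the count was 3 risen of 10 tested, and Wnt7b and Notum, an enzyme that inactivates Wnt proteins, were then not called. Wnt3 had 25.1 and 25.9 CPM in KO1 and 15.7 and 17.5 CPM in KO2, against 0.929 and 0 CPM in WT, a ratio of 44.5 (95% counting interval 7.80 to 1775) with 1 count in WT (edgeR adjusted p = 3.83e-05). Wnt4 had 17.8 to 25.1 CPM in KO and 0 and 2.82 CPM in WT (ratio 13.9, 95% counting interval 4.61 to 68.7), and Wnt7b 9.77 to 28.9 CPM in KO and 2.79 and 4.70 CPM in WT (log2 2.08). Wls, the carrier that Wnt proteins need for secretion, had 44.0 and 43.7 CPM in KO1 and 68.3 and 52.4 CPM in KO2, against 8.36 and 9.41 CPM in WT (log2 2.51, SE 0.31, edgeR adjusted p = 1.99e-05).

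In the list of β-catenin targets and TCF/LEF factors 9 of 25 tested genes (32 listed) rose, 2 fell and 14 were not called, with a median of 0.30. The TCF-type motif, CTTTG followed by 2 bases that are each A or T, on both strands, occurred in 7 of 29 windows (24.1%), against 16.9% of all windows, in 4 of 9 windows of risen members and 3 of 20 of the others. The window of Sp5 is shown, with its match in capitals, because Sp5 had the smallest adjusted p of this list.
Sp5, chr2:70474803-70474922, plus strand: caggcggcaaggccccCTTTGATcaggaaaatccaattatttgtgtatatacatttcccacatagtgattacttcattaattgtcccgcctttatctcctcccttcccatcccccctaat
Sp5 (chr2:70474923-70477729, plus strand), a zinc-finger factor induced by β-catenin, had 55.3 and 51.8 CPM in KO1 and 70.2 and 67.7 CPM in KO2, against 1.86 and 0.941 CPM in WT. With 3 counts in WT its ratio was 43.9 (95% counting interval 14.9 to 214), and its adjusted p was 2.06e-07 (edgeR). Ccnd2, a D-type cyclin, had 156 and 178 CPM in KO1 and 212 and 181 CPM in KO2, against 48.3 and 44.2 CPM in WT (log2 1.97, SE 0.20). Tcf7l2, a DNA-binding partner of β-catenin, had 91.0 to 102 CPM in KO and 30.7 and 33.9 CPM in WT (log2 1.57). The genes that fell were Notum, at 2.96 to 12.6 CPM in KO and 41.8 and 19.8 CPM in WT, and Lef1, another such partner, at 27.2 to 45.2 CPM in KO and 89.2 and 95 CPM in WT (log2 -1.43). Without KO1 replicate 1 the count of fallen genes was 6 of 26, and without WT replicate 1 it was 1 of 26. Axin2, a feedback inhibitor of the pathway named after its values were seen, had 12.6 to 30.2 CPM in KO and 13 and 16 CPM in WT and did not pass (adjusted p = 0.631).

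Among Nodal, Lefty and activin genes 8 of 19 tested (25 listed) rose, 3 fell and 8 were not called (median 0.30), and the DESeq2 Wald test called 4 of 20 higher. Lefty2, a secreted inhibitor of Nodal, had 288 and 332 CPM in KO1 and 301 and 331 CPM in KO2, against 121 and 109 CPM in WT (log2 1.45, SE 0.18, edgeR adjusted p = 1.68e-05). Tdgf1, the Nodal co-receptor Cripto, was on the low side, with 481 to 619 CPM in KO and 1242 and 873 CPM in WT (log2 -0.96). BMP genes included 6 risen, 1 fallen and 7 uncalled members of 14 tested (27 listed, median 0.40). Id3, an inhibitor of helix-loop-helix factors induced by BMP, had 255 and 206 CPM in KO1 and 212 and 239 CPM in KO2, against 50.2 and 54.6 CPM in WT (log2 2.12, SE 0.20). The related Id2 had 181 to 237 CPM in KO and 80.9 and 93.1 CPM in WT (log2 1.28). The ligands went opposite ways, since Bmp2 had 9.62 to 19.5 CPM in KO and 0.929 and 1.88 CPM in WT (ratio 10.1, 95% counting interval 3.31 to 50.2), and Bmp4 14.1 to 31.4 CPM in KO and 97.6 and 64.0 CPM in WT (log2 -1.88, edgeR adjusted p = 3.64e-05).

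FGF and ERK genes split, with 7 of 23 tested (27 listed) higher, 5 lower, 11 uncalled and a median of -0.01 that took either sign over the alternatives. The DESeq2 Wald test called 4 higher and 2 lower. Spry4, a feedback inhibitor of FGF receptors, had 45.2 and 29.6 CPM in KO1 and 44.3 and 52.4 CPM in KO2, against 189.6 and 122 CPM in WT (log2 -1.89, SE 0.22, edgeR adjusted p = 1.08e-05). Fgf5, the ligand of primed cells, had 11.8 to 23.7 CPM in KO and 0.929 and 1.88 CPM in WT (ratio 14.1, 95% counting interval 4.67 to 69.5). Dusp14, a MAP kinase phosphatase, had 41.9 to 54.5 CPM in KO and 15.8 and 12.2 CPM in WT (log2 1.79), and the early-response gene Ier3 139 to 215 CPM in KO and 63.2 and 48.9 CPM in WT (log2 1.55). The count of lower members was 8 without KO1 replicate 1 and 3 without KO2 replicate 2 or without WT replicate 1.

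Antigen-presentation and interferon genes were higher in KO in part. Of 17 tested genes of MHC class I processing (22 listed) 8 rose and 9 were not called (median 0.76), and 5 of 17 rose without KO2 replicate 2, without WT replicate 2 or by the DESeq2 Wald test. Of 14 tested interferon-stimulated genes (34 listed) 5 rose and 9 were not called (median 0.74), while without the low-count filter 8 of 31 were higher, and the median lay between 0.39 and 1.39 over the alternatives run. The interferon-type motif, GAAA followed after any 2 bases by another GAAA, on both strands, was in 19 of 32 windows of the interferon list (59.4%) and in 4 of 20 windows of the MHC list (20%), against 3.44% of all windows. Risen members held it in 4 of 6 windows of the interferon list and 2 of 9 of the MHC list, and the other members in 15 of 26 and 2 of 11. The window of Gbp2 is shown, with its match in capitals, because Gbp2 was among the 10 highest genes.
Gbp2, chr3:142620543-142620662, plus strand: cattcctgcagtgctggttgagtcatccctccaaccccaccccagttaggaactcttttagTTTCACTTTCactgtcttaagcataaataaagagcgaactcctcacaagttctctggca
Gbp2, an interferon-induced GTPase, had 42.7 and 37.0 CPM in KO1 and 33.2 and 45.4 CPM in KO2, against 1.86 and 1.88 CPM in WT (log2 4.33, SE 0.45, edgeR adjusted p = 3.83e-06). Its paralog Gbp2b had 42.7 to 58.6 CPM in KO and 3.72 and 3.76 CPM in WT (log2 3.74). Because guanylate-binding genes resemble each other, the split of reads between them is uncertain. Irf1, a transcription factor of the interferon response, had 179.7 and 214 CPM in KO1 and 178 and 164 CPM in KO2, against 57.6 and 63.0 CPM in WT (log2 1.61). Psme2, a subunit of the proteasome activator PA28, had 95.5 and 94.7 CPM in KO1 and 104 and 157 CPM in KO2, against 34.4 and 35.7 CPM in WT (log2 1.67). Tapbp, which loads peptides on MHC class I, had 64.6 to 111 CPM in KO and 16.7 and 32.0 CPM in WT (log2 1.72), and the immunoproteasome subunit Psmb8 13.8 to 18.1 CPM in KO and 0.929 and 1.88 CPM in WT (ratio 11.9, 95% counting interval 3.93 to 59.1).

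Neuronal genes moved both ways. Of 16 tested genes for neuronal filaments, stathmins and peptides (28 listed) 4 rose, 2 fell and 10 were not called (median -0.06, with either sign over the alternatives). Gap43, a growth cone protein, had 94.2 and 91.0 CPM in KO1 and 122 and 94.9 CPM in KO2, against 15.8 and 17.9 CPM in WT (log2 2.56, SE 0.25, edgeR adjusted p = 1.86e-06). The neurofilament gene Nefm had 38.9 to 59.1 CPM in KO and 5.58 and 2.82 CPM in WT (log2 3.57), and Nefl 70.4 to 101 CPM in KO and 27.0 and 27.3 CPM in WT (log2 1.65). Stmn2, a microtubule regulator, was lower, with 211 to 311 CPM in KO and 633 and 504 CPM in WT (log2 -1.09). Of 12 tested neural and neural crest factors (30 listed) 5 rose, 2 fell and 5 were not called (median 0.67). Nes, the intermediate filament nestin, had 49.0 and 69.6 CPM in KO1 and 87.7 and 60.7 CPM in KO2, against 10.2 and 10.3 CPM in WT (log2 2.68). Hes1, a Notch target, had 325 to 505 CPM in KO and 188 and 206 CPM in WT (log2 1.09). Without KO2 replicate 1, WT replicate 1 or WT replicate 2, or by the DESeq2 Wald test, 3 neural factors were called higher. A sum of 4 neuron markers, most of it Stmn2, was 286 to 376 CPM in KO and 731 and 604 CPM in WT.

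**Figure D4:**
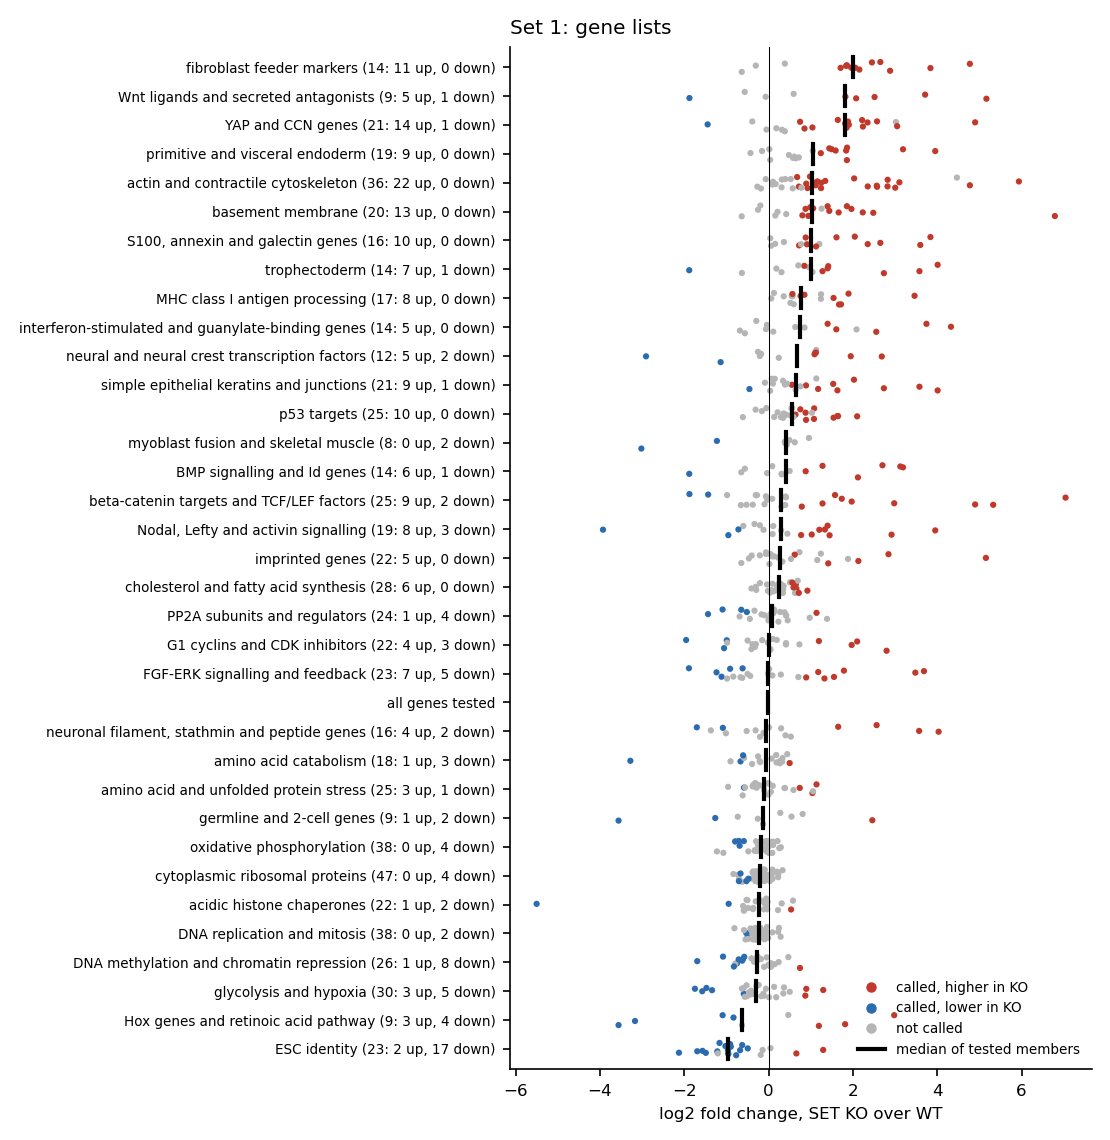
edgeR fold change, log2 of KO over WT, (x axis) of each tested member of 34 gene lists (y axis, with members tested and called in each direction), ordered by the list median (black bar). The feeder list has a median of 2.01 over 14 of 30 members, the YAP list 1.82 over 21 of 24, and the ESC identity list -0.96 over 23 of 25. Members under the low-count filter are not drawn, and genes near 0 in WT are drawn where their KO counts passed it.

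G1 cyclins and CDK inhibitors were called in larger shares (18.2% higher, 13.6% lower) than all tested genes (7.71% and 6.06%). DNA replication and mitosis genes were not (0% and 5.26%). Of 22 tested G1 cyclins and CDK inhibitors (25 listed) 4 rose, 3 fell and 15 were not called (median 0.01, with either sign over the alternatives). Cdkn1a, the CDK inhibitor p21, had 253 and 287 CPM in KO1 and 241 and 176 CPM in KO2, against 42.8 and 67.7 CPM in WT (log2 2.10), and Cdkn2a had 72.0 to 92.8 CPM in KO and 42.8 and 32.0 CPM in WT (log2 1.19). E2f2, an activator of S phase genes, had 12.6 and 10.4 CPM in KO1 and 15.7 and 16.8 CPM in KO2, against 46.5 and 59.3 CPM in WT (log2 -1.96, edgeR adjusted p = 4.86e-05). Of 38 genes of DNA replication and mitosis, 2 were lower and 36 were not called (median -0.24). These were Pola1, at 101 to 113 CPM in KO and 159.9 and 147 CPM in WT, and Ccnb2, at 138 to 144 CPM in KO and 212 and 187 CPM in WT. Neither gene was called when any 1 library was left out or by the DESeq2 Wald test, and 5 other members were lower without KO1 replicate 1.

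Genes of DNA methylation, its oxidation and chromatin repression leaned lower. In the list of DNA methylation and chromatin repression genes 8 of 26 tested (27 listed) fell, 1 rose and 17 were not called (median -0.27), and 5 fell without KO2 replicate 2 or without WT replicate 2. Tet1, which oxidises 5-methylcytosine, had 164 to 209 CPM in KO and 396 and 365 CPM in WT (log2 -1.08), and its relative Tet2 28.6 to 51.7 CPM in KO and 125 and 135 CPM in WT (log2 -1.69). Ezh2, the methyltransferase of Polycomb complex PRC2, had 209.8 and 252 CPM in KO1 and 251 and 247 CPM in KO2, against 453 and 399 CPM in WT (log2 -0.82, edgeR adjusted p = 0.00130). The member that rose was Dnmt3b, a de novo DNA methyltransferase, at 757 to 839 CPM in KO and 462 and 496 CPM in WT (log2 0.74).

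Metabolic lists changed in few members. For glycolysis and hypoxia 3 of 30 tested genes (31 listed) rose and 5 fell (median -0.31), the risen ones near the 7.71% of all tested genes, and the DESeq2 Wald test called 3 lower. Pfkp, the platelet phosphofructokinase, had 82.9 and 92.5 CPM in KO1 and 96.0 and 81.7 CPM in KO2, against 343 and 251 CPM in WT (log2 -1.75, SE 0.17, edgeR adjusted p = 2.31e-06). Egln3, an oxygen-sensing prolyl hydroxylase, had 24.9 to 36.4 CPM in KO and 95.7 and 103 CPM in WT (log2 -1.58), while the collagen prolyl hydroxylase P4ha2 had 59.0 to 85.9 CPM in KO and 35.3 and 28.2 CPM in WT (log2 1.29). Leaving out either KO2 library left 3 fallen genes. For cholesterol and fatty acid synthesis 6 of 28 tested (31 listed) rose and 22 were not called (median 0.25). Hmgcs1, the synthase that makes HMG-CoA, had 793 to 944 CPM in KO and 510.2 and 554 CPM in WT (log2 0.66), and Fasn, the fatty acid synthase, 374 to 499 CPM in KO and 242 and 262 CPM in WT (log2 0.72). That count rested on WT replicate 1, without which 1 of 29 tested rose and neither Hmgcs1 nor Fasn was called, and it was 3 without either KO2 library or by the DESeq2 Wald test.

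For amino acid and unfolded protein stress 3 of 25 tested genes (28 listed) rose and 1 fell (median -0.10, but 0.16 without WT replicate 2). Ddit4, a stress-induced inhibitor of mTORC1, had 255 and 295 CPM in KO1 and 179 and 169 CPM in KO2, against 97.6 and 102 CPM in WT (log2 1.14, edgeR adjusted p = 0.000230). Hspa5, the chaperone BiP of the endoplasmic reticulum, had 1516 to 1849 CPM in KO and 954 and 976 CPM in WT (log2 0.74). The fall of Asns, asparagine synthetase (log2 -0.59, adjusted p = 0.0468), was no longer called when any 1 library other than WT replicate 2 was left out. For amino acid catabolism 1 of 18 tested (28 listed) rose and 3 fell (median -0.07, but 0.12 without the low-count filter), namely Aass, Tdh, threonine dehydrogenase, at 344 to 363 CPM in KO and 516 and 609 CPM in WT, and Got1, an aspartate transaminase, at 232 to 241 CPM in KO and 401 and 325 CPM in WT. The call of Tdh was lost without WT replicate 2, and that of Got1 without WT replicate 1 or either KO2 library.

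Imprinted genes were higher where called, with 5 of 22 tested (32 listed) risen, 17 not called and a median of 0.28. H19, a maternally expressed noncoding RNA, had 44.0 and 57.7 CPM in KO1 and 34.2 and 20.2 CPM in KO2, against 0.929 and 0.941 CPM in WT, a ratio of 41.1 (95% counting interval 11.2 to 342) with 2 counts in WT (edgeR adjusted p = 5.75e-06). Peg3, a paternally expressed zinc-finger gene, had 175 and 198 CPM in KO1 and 203 and 185 CPM in KO2, against 50.2 and 36.7 CPM in WT (log2 2.13, SE 0.21). Peg10 had 204 to 277 CPM in KO and 96.7 and 77.1 CPM in WT (log2 1.41), and Plagl1, a growth-inhibiting zinc-finger factor, 10.4 to 24.9 CPM in KO and 1.86 and 2.82 CPM in WT (log2 2.84).

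Of 9 tested Hox and retinoic acid genes (34 listed) 3 rose, 4 fell and 2 were not called. Their median of -0.63 did not keep its sign, at 0.52 without KO2 replicate 1, 0.29 without KO2 replicate 2, 0.50 without WT replicate 1, 0.38 without WT replicate 2, 0.65 with all undifferentiated R1 samples in the fit and 0.90 over 29 members without the low-count filter. The DESeq2 Wald test called 1 higher and 3 lower. Beside Stra8 and Halr1, the retinoic acid receptor Rarg was lower, with 86.7 and 90.3 CPM in KO1 and 91.4 and 77.5 CPM in KO2, against 191 and 178 CPM in WT (log2 -1.09, edgeR adjusted p = 0.000227). Without WT replicate 1, 1 of 11 tested members rose. Of 9 tested germline and 2-cell genes (27 listed) 1 rose and 2 fell (median -0.13, with either sign over the alternatives). Dazl, an RNA-binding protein of germ cells that was not called without WT replicate 1, had 12.9 to 17.5 CPM in KO and 39.0 and 32.0 CPM in WT (log2 -1.27), and Usp26, an X-linked testis-type deubiquitinase, 15.4 to 28.6 CPM in KO and 2.79 and 4.70 CPM in WT (log2 2.46).

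Few other histone chaperones were called, and PP2A genes were called in part. Of 22 tested acidic histone chaperones (25 listed) 19 were not called (median -0.23). Beside Set, Hira, which deposits histone H3.3, was lower, with 15.1 and 14.8 CPM in KO1 and 18.5 and 27.2 CPM in KO2, against 35.3 and 36.7 CPM in WT (log2 -0.95, adjusted p = 0.0248). Ptma, the acidic prothymosin, was higher, with 2758 and 3118 CPM in KO1 and 2369.9 and 2253 CPM in KO2, against 1557 and 2046 CPM in WT (log2 0.53, adjusted p = 0.0213). Neither gene was called without WT replicate 1 or KO2 replicate 1, Hira also not without KO1 replicate 2 or WT replicate 2 or by the DESeq2 Wald test, and Ptma not without KO2 replicate 2. Of 24 tested PP2A subunits and regulators (26 listed) 1 rose, 4 fell and 19 were not called (median 0.08). These shares were 4.17% higher and 16.7% lower, beside 7.71% and 6.06% of all tested genes. Ppp2r5a, a B56 regulatory subunit, had 56.5 and 85.1 CPM in KO1 and 60.9 and 54.4 CPM in KO2, against 188 and 162 CPM in WT (log2 -1.44, edgeR adjusted p = 4.44e-05). The regulatory subunit Ppp2r2c had 83.1 to 107 CPM in KO and 37.2 and 48.0 CPM in WT (log2 1.14). The count of fallen members was 2 without either KO2 library or WT replicate 2, and 1 without WT replicate 1 or by the DESeq2 Wald test.

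Of 47 tested cytoplasmic ribosomal protein genes (48 listed) 4 were lower and 43 were not called (median -0.21), and of 38 oxidative phosphorylation genes 4 were lower and 34 were not called (median -0.19). These counts are near the 6.06% of all tested genes that were called lower. Rps20 had 2124 and 2368 CPM in KO1 and 2428 and 2644 CPM in KO2, against 3811 and 2838 CPM in WT (log2 -0.48, edgeR adjusted p = 0.0328), and Ndufv2, a complex I subunit, 134 to 200.3 CPM in KO and 279.8 and 234 CPM in WT (log2 -0.71). The calls depended on single libraries. Without WT replicate 1 or KO2 replicate 1 all 8 calls were lost, and without KO1 replicate 1 the counts were 9 and 7. Without the low-count filter 9 ribosomal protein genes were lower. Reads of ribosomal protein genes can be shared with their pseudogenes, which adds to the uncertainty.

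The ESC identity list had the lowest median of the 34 lists, with 17 of 23 tested genes (25 listed) lower, 2 higher and 4 not called (median -0.96), and 10 of 25 tested p53 targets (30 listed) rose (median 0.55; 6 by the DESeq2 Wald test). Nr0b1, a nuclear receptor of the naive network, had 30.2 and 16.3 CPM in KO1 and 24.0 and 47.5 CPM in KO2, against 137 and 112 CPM in WT (log2 -2.13, SE 0.26, edgeR adjusted p = 2.87e-05). Esrrb, an orphan receptor of the same network, had 119 and 133 CPM in KO1 and 99.7 and 79.6 CPM in KO2, against 253 and 345 CPM in WT (log2 -1.49). Perp, a p53-induced membrane protein of desmosomes, had 93.2 to 134 CPM in KO and 37.2 and 35.7 CPM in WT (log2 1.63), and Mdm2, the ligase that restrains p53, 302 to 344 CPM in KO and 182 and 166 CPM in WT (log2 0.89).

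Set directly against each other, KO2 and KO1 differed in 1 called gene of 9764 (0.0102%), Ddx3y, with 710 genes at an unadjusted p under 0.05. Its log2 fold change of KO2 over KO1 was 3.59 (SE 0.39, edgeR adjusted p = 0.000336), with 72.0 and 74.0 CPM in KO2 and 2.51 and 8.14 CPM in KO1. The DESeq2 Wald test also called 1 gene. A single library decided this count, because without KO1 replicate 1 the fit called 196 genes, 187 of them higher in KO2, and without the low-count filter 25 were called. With 2 libraries a line, a missed threshold does not show that the lines were alike. Col4a1, for example, had 609 and 593 CPM in KO2 and 387 and 388 CPM in KO1 (log2 0.63, SE 0.18, adjusted p = 0.637).

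The effect of knockout in set 1 was then set against that of the 10 undifferentiated R1 libraries of set 2, in which libraries with the same title code were summed to 6 samples, 2 per line. In a joint fit of 11950 genes the effects differed in 128 (1.07%), higher in set 1 in 100 and lower in 28. Set had 521 and 564 CPM in KO1 and 391.9 and 276 CPM in KO2 of set 2, against 1208 and 1408 CPM in WT of set 2, a log2 fold change of -1.62. The KO effect of set 1 minus that of set 2 was -3.90 (SE 0.23, edgeR adjusted p = 3.44e-12). KO libraries of set 1 thus held much less of the Set transcript than those of set 2, where its reduction was partial. The counts of differing genes were 332 without KO1 replicate 1 of set 1, then split into 163 higher and 169 lower, 76 without KO2 replicate 1, 48 without WT replicate 1, and 78 with every set 2 library as its own sample. The file headers carry different knockout codes in each set, and the labels do not say whether KO1 and KO2 are the same clones in both, so depth of Set loss, clone, title set and Y-linked state cannot be told apart.

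Contractile, S100 and keratin genes were among those with a larger effect in set 1. Of 38 actin and contractile genes in the joint fit 12 had a larger effect in set 1, as did 5 of 21 YAP and CCN genes, 4 of 18 S100, annexin and galectin genes and 3 of 23 keratin and junction genes, beside 0.837% of all genes. The same held for 3 of 24 feeder, 3 of 20 basement membrane, 3 of 20 trophectoderm, 3 of 24 imprinted and 5 of 27 β-catenin list members. In the YAP list 1 gene had a lower effect in set 1, as did 1 in the β-catenin list. For Tpm1 the difference was 2.00 (SE 0.19, edgeR adjusted p = 7.21e-08), with 664 and 654 CPM in KO1 and 654 and 519 CPM in KO2 of set 2, against 365 and 346 CPM in WT of set 2. For Acta2 it was 4.22 (adjusted p = 1.07e-08), with 187 and 242 CPM in KO1 and 252 and 254 CPM in KO2 of set 2, against 145 and 169.6 CPM in WT of set 2. S100a6 differed by 2.27 and Krt18 by 2.74 (adjusted p = 1.35e-06 and 0.000141). With every set 2 library as its own sample the S100a6 difference was not called. WT of set 2 held more Acta2 than WT of set 1, and also more feeder transcripts. The 9 feeder markers summed to 90.2 and 107 CPM in KO1 and 112 and 133 CPM in KO2 of set 2, against 57.7 and 77.6 CPM in WT of set 2, while WT of set 1 had 35.3 and 16 CPM. Their part in these differences was not tested. Sp5 and Mymx did not pass the test of the difference (3.17, adjusted p = 0.302, and -0.98, adjusted p = 0.104), although Sp5 was called without the low-count filter. Neither did Klf4 (-0.42, adjusted p = 0.463) or Cdkn1a (0.62, adjusted p = 0.294).

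**Figure D5:**
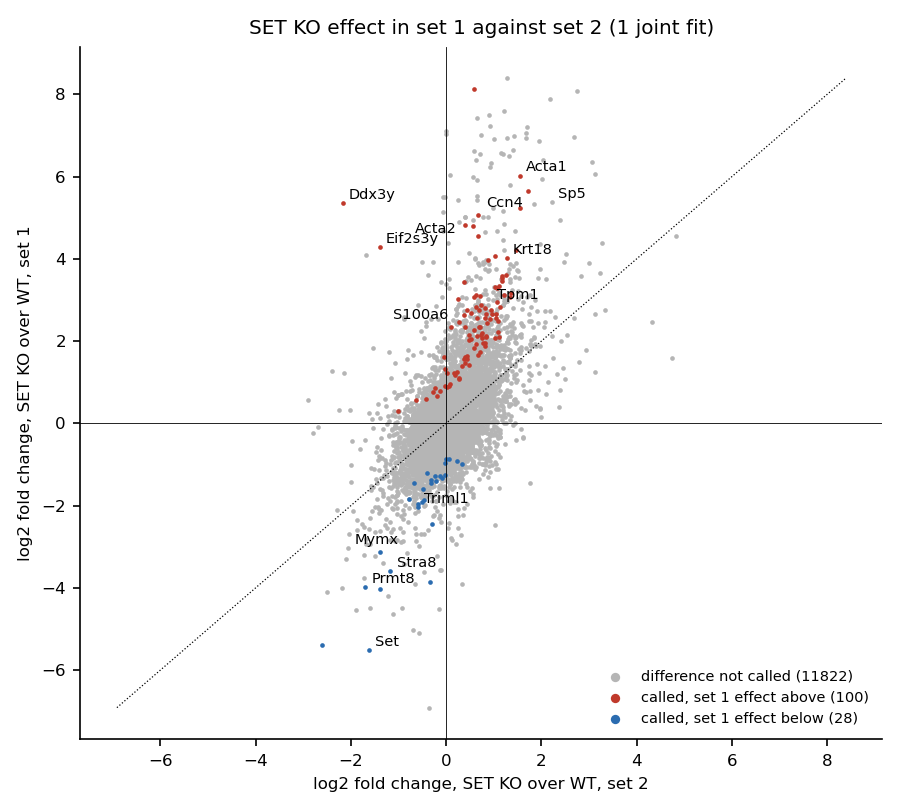
Each point is 1 of 11950 genes of the joint fit, with the log2 fold change of KO over WT in set 2 (x axis) and in set 1 (y axis) and a dotted line of equal effects. The 100 genes in red, Acta2, Tpm1, S100a6 and Krt18 among them, lie above the line, the 28 in blue, Set among them, lie below it, and Ddx3y and Eif2s3y have opposite signs in the 2 sets.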

How the data were processed

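RNA (500 ng per library, per the labels' protocols) was made into QuantSeq 3′ libraries. Gene-level raw counts were deposited, produced by featureCounts 1.6.0 with the Ensembl 97 annotation (GRCm38) per the file headers, whose command lists no strand or multi-mapping option. The submitters' processing notes name STAR 2.5.4b, Subread 2.0.0 and mm10. Symbols matched 55394 of 55573 genes, unmatched ones holding up to 0.00066% of counts per library, and 215 identifiers shared a symbol. Mitochondrial genes had 0 counts in all libraries.

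From the counts, edgeR 4.0.16 (R 4.3.3) gave TMM-scaled CPM and robust quasi-likelihood F tests with filterByExpr (minimum count 10, minimum total 15), on group means per line. Benjamini-Hochberg adjustment ran over all tested genes, with a threshold of 0.05. SE is the log2 fold change divided by the square root of F. Alternatives used DESeq2 1.42.0, other scaling, no filter, a replicate block and leaving out libraries. The counts of list members without a library or by DESeq2 were added after seeing the data. Fits were tested on simulated data. A side with 1 to 3 counts has a ratio with a 95% counting interval.

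Named genes were the 4 marker genes, the 10 highest and 10 lowest called genes reaching 20 CPM with the same sign in both lines, up to 4 called members of each of 34 lists by adjusted p, and the top 6 (lines) or 4 (sets) per direction of the other contrasts, leaving out Gm, Rik, unnamed genes and pseudogenes. Some genes the rule names are not reported here. Members, lists and rule were chosen with earlier results of these data known. Promoter windows are RefSeq's, GRCm38.p6. Other libraries of the series were not used here. Tables used Python 3.11.15 and pandas 2.3.3, and figures matplotlib 3.10.9.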

Additional observations from a re-analysis of the deposited data

Results flagged for a closer look

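Differences between the sets were tested in the joint fit with edgeR. The KO effect of set 1 minus that of set 2 was -3.90 for Set (adjusted p = 3.44e-12), -2.28 for Prmt8 (adjusted p = 0.0194), -2.42 for Stra8 (adjusted p = 0.000364) and -1.43 for Triml1 (adjusted p = 0.0194). Triml1, a gene of early embryos in mouse, had 18.8 and 26.6 CPM in KO1 and 23.1 and 11.9 CPM in KO2, against 79.0 and 82.8 CPM in WT of set 1. In set 2 it had 14.1 and 18.8 CPM in KO1 and 15.2 and 19.12 CPM in KO2, against 22.3 and 27.8 CPM in WT. The Prmt8 call was lost without either KO2 library or WT replicate 1 of set 1, and the Triml1 call without KO2 replicate 2 or either WT library.

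In the other direction the difference was 4.47 for Acta1 (adjusted p = 0.00690) and 4.39 for Ccn4 (adjusted p = 0.00770). Ccn4, a matricellular protein induced by Wnt signalling, had 15.4 to 20.7 CPM in KO and 0.929 and 0 CPM in WT of set 1. Both calls were lost without WT replicate 2 of set 1, and both differences depend on the prior count, since WT of set 1 held 2 counts of Acta1 and 1 of Ccn4.

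Ddx3y and Eif2s3y had effects of opposite sign in the sets, with differences of 7.53 (adjusted p = 5.41e-08) and 5.69 (adjusted p = 2.55e-07). In set 2 Ddx3y had 30.8 and 31.1 CPM in KO1 and 6.23 and 7.38 CPM in KO2, against 62.6 and 67.1 CPM in WT. Within set 1, Ddx3y was also the gene that differed between the lines, with a log2 fold change of 3.59 of KO2 over KO1 (adjusted p = 0.000336). Which line was lower in Y-linked transcripts thus differed between the sets, with summed levels of 60.9 and 61.2 CPM in KO1 and 14.3 and 16.1 CPM in KO2 of set 2, against 105 and 114 CPM in WT of set 2.

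Among 125 named genes, 9 had 1 KO library of set 1 far from the other 3, by Dixon's test at the 95% level, which chance flags in about 5% of groups. KO1 replicate 1 was high for Wnt4 (25.1 CPM, others 17.8 to 18.8) and Halr1 (13.8, others 7.39 to 8.38) and low for Ezh2 (209.8, others 247 to 252). KO1 replicate 2 was high for Hspa5 (1849, others 1516 to 1553) and low for Fgf5 (11.8, others 22.2 to 23.7). KO2 replicate 1 was high for Col1a1 (70.2, others 51.0 to 52.8) and Gap43 (122, others 91.0 to 94.9) and low for Egln3 (24.9, others 34.9 to 36.4). KO2 replicate 2 was high for Psme2 (157, others 94.7 to 104).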

How the results depend on the processing

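Counts of called genes moved with the test and with single libraries. In KO against WT, the DESeq2 Wald test gave 612 genes against 1345, and leaving out 1 library at a time gave 751 to 1716. For KO1 against WT these were 476 genes and a range of 516 to 1428, and for KO2 against WT 434 genes and 524 to 1179. KO2 against KO1 gave 25 genes without the low-count filter, 2 with all undifferentiated R1 samples in the fit and 1 to 196 with a library left out. The difference between the sets gave 199 genes without the filter, 78 with every set 2 library as its own sample and 48 to 332 with a library left out. The shares of higher calls in KO against WT were 56.0% by edgeR and 62.9% by DESeq2, and 63.2% with counts summed per KO line.

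Other alternatives kept the counts within 1.5 times. These were DESeq2 size factors, 1 KO group of 4 libraries (1200 genes), counts summed per KO line (911) and the lines fitted apart. Replicate numbers did not pair the libraries (correlations of their deviations -0.136 to 0.0436), and a replicate block gave 1210 genes in KO against WT, 964 in KO1, 857 in KO2, 1 between the lines and 114 for the set difference, where only set 1 numbers could enter because summed set 2 samples carry several. Of 150 results for single genes, 37 lost their call in at least 1 alternative, 28 of them in the fit without WT replicate 1. None changed sign in the alternatives run, and 109 kept their side of the threshold in all of them. When a line or WT was left with 1 library, that library was assumed to vary like the others. At this depth the median SE of log2 fold changes was 0.4 for genes under 20 CPM and 0.175 for those over 100 CPM, so small changes in rare transcripts were not detectable.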
